A study of Mus musculus with 37 samples.

Results

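Trib1 and Trib2 encode Tribbles pseudokinases, and both were read by symbol in a table of raw counts from hearts of mouse embryos at E10.5. They are 2 of the 25239 genes in the table, and both passed the filter on low counts that left 15046 genes for testing. The pair was chosen by gene symbol with its levels in these 4 genotypes known, so differences between genotypes are described here with their errors and without p-values. Trib2 was lower in hearts with 1 working Nipbl allele, on both Isl1 backgrounds, with an averaged log2 change of −0.67 (SE 0.09). Trib1 showed no such difference, and the 95% interval of its change ran from −0.18 to 0.09 on the log2 scale.

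Tribbles proteins keep the fold of a kinase but have little or no catalytic activity. They act as scaffolds: a tail at the carboxyl end binds the ubiquitin ligase COP1, the pseudokinase domain holds a substrate, and the substrate is degraded. TRIB1 and TRIB2 are best known for removing the transcription factor C/EBPα in blood cells, and TRIB1 also for its role in liver lipid metabolism. Both bind MAP kinase kinases as well, while TRIB3, the third family member, binds AKT and is induced by the stress factors ATF4 and CHOP.

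The embryos came from Stra8-iCre; Nipbl Flox/+ fathers, whose sperm carried either Nipbl Flox, which works as a wild-type allele, or Nipbl FIN, a null allele. The mothers were Isl1 Cre/+, with Cre recombinase inserted in 1 Isl1 allele, and are haploinsufficient for Isl1. The 4 genotypes were Nipbl +/+; Isl1 +/+ (here wild-type, n = 10), Isl1 +/- (n = 9), Nipbl +/- (n = 9) and Nipbl +/-; Isl1 +/- (here double heterozygous, n = 9). NIPBL loads cohesin, the ring complex that folds chromosomes into loops, and ISL1 is a homeodomain factor that marks progenitors of the heart. Every Isl1 +/- and double heterozygous embryo carries the Cre, so loss of Isl1 and presence of Cre cannot be told apart, and whether this Cre acts on the paternal Nipbl allele is not given in the sources used here. Each library was made from heart RNA and carries a set number in its label, whose meaning is not spelled out. Set 1 held 3 wild-type and 3 Isl1 +/- libraries, sets 2, 5 and 6 held all 4 genotypes, and set 7 held only double heterozygous replicate 2. Set number was a term in the fit, so that last library was fitted exactly and fitted differences of the double heterozygotes rest on 8 libraries. Nothing in the labels says that replicates are separate litters, so p-values measure the spread between these libraries only.

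Total counts ran from 23.4 to 51.0 M (mega-counts) per library. The 8 cardiomyocyte markers were present in every library, with summed levels of 26698 to 41021 CPM (counts scaled to a common library size with TMM factors). Nipbl averaged 60.0 ± 10.1 CPM (SD, n = 10) in wild-type hearts, 61.5 ± 5.88 (n = 9) in Isl1 +/-, 39.3 ± 13.8 (n = 9) in Nipbl +/- and 38.1 ± 7.41 (n = 9) in double heterozygous hearts. The library labelled Nipbl +/- replicate 2 goes against its label, at 72.4 CPM of Nipbl against 27.1 to 44.9 CPM in the other 8 of its group, and the results are given with and without it. Isl1 averaged 7.37 ± 2.24 CPM in wild-type and 6.28 ± 1.76 CPM in Isl1 +/- hearts, ranges that overlap, so its level did not check the Isl1 label of single libraries. It averaged 13.0 ± 2.82 CPM in Nipbl +/- and 9.497 ± 3.51 CPM in double heterozygous hearts (n = 9 each), and with averaged Nipbl loss it rose by 0.65 (SE 0.15, edgeR adjusted p = 0.00655).

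Trib1 lies on the forward strand of chromosome 15 (chr15:59648350-59657099, GRCm38, GENCODE M21) and Trib2 on the reverse strand of chromosome 12 (chr12:15791727-15816922). M21 gives Trib1 2 transcripts and 6248 bp of merged exons, and Trib2 4 transcripts and 4335 bp. Of the pair, Trib2 matched the RefSeq promoter table and Trib1 did not. The Trib2 start region is shown because the level of Trib2 differed between genotypes. It covers chr12:15816736-15817035 on the reverse strand of GRCm38.p6 and has 250 bases before the start site in that promoter table and 50 after it. That start site, at position 15816785, lies inside the gene as annotated in M21 and in RefSeq. Part of the 250 bases is therefore within the annotated gene, and both GC boxes marked below lie within the RefSeq gene. Capitals mark GGGCGG (the GC box) and TAAT with its overlapping reverse complement (the core of many homeodomain sites, ISL1 among them).

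Trib2: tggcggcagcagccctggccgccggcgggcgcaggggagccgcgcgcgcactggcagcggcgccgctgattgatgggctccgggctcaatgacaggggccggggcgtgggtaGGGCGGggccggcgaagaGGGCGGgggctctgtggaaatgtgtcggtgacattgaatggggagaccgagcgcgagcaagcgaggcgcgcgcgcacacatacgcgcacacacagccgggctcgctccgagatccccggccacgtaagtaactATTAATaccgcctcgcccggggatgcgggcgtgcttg

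This stretch is 71% G and C and holds 40 CpG pairs, against medians of 52.7% and 7 over the 27025 promoters of that length in the table. Of those promoters, 96.2% held fewer CpG pairs. On both strands together, GGGCGG occurs 2 times, a motif held by 35.9% of the promoters. TAAT occurs 2 times as overlapping matches on opposite strands just after the start site, and 58.3% of the promoters hold it. CCCTC, part of the CTCF core, occurs once on the opposite strand, overlapping a GC box, and is held by 65% of the promoters. No match was found for CANNTG, the E-box, which 72.2% of promoters hold. Nor was there a match for CCAAT, the letters bound by NF-Y, which 37.9% hold. The letters TATAAA, bound by TBP, had no match and are held by 14.2% of promoters. These are letter matches only.

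Trib2 was the more abundant member in every genotype when levels were taken per kilobase of merged exon. On that scale wild-type hearts had 17.3 ± 2.33 CPM per kb of Trib2 and 2.90 ± 0.365 CPM per kb of Trib1 (SD, n = 10). Trib3 was near Trib1, at 2.19 ± 1.90 CPM per kb. In double heterozygous hearts Trib2 was at 10.6 ± 0.802 CPM per kb and Trib1 at 3.16 ± 0.485 CPM per kb (n = 9), so Trib2 stayed above Trib1 there. Read counts behind these values were 305 to 1192 per library for Trib1 and 682 to 3766 for Trib2.

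In wild-type hearts Trib2 ran from 59.3 to 90.1 CPM with a median of 77.4, and its mean was 74.8 ± 10.1 CPM (SD, n = 10). In Isl1 +/- hearts it ran from 63.7 to 75.4 CPM with a median of 69.0 and a mean of 69.8 ± 4.18 CPM (n = 9). All of these Isl1 +/- values lay inside the wild-type range, and 7 of the 9 were below the wild-type mean.

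In Nipbl +/- hearts Trib2 ran from 18.6 to 59.6 CPM with a median of 46.9 and a mean of 44.7 ± 11.4 CPM (n = 9). The lowest of these is replicate 2, whose Nipbl level goes against its label, and without it the group ran from 41.1 to 59.6 CPM with a mean of 48.0 ± 6.26 CPM (n = 8). Of the 9 libraries, 8 were below every wild-type library, and replicate 1, at 59.6 CPM, was just above the lowest wild-type value. All 9 were below every Isl1 +/- library. How many of all genes separate in these ways was not counted for Nipbl +/- hearts, so nothing is read from these counts.

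In double heterozygous hearts Trib2 ran from 41.1 to 51.5 CPM with a median of 46.4 and a mean of 46.0 ± 3.48 CPM (n = 9). All 9 were below every wild-type library and below every Isl1 +/- library. Of the 15046 genes tested, 12 (0.0798%) had all double heterozygous libraries below every wild-type library, and 20 (0.133%) had them all below every Isl1 +/- library. In the order of mean levels, wild-type and Isl1 +/- hearts overlapped, double heterozygous and Nipbl +/- hearts overlapped, and the step lay between the genotypes with 2 and with 1 working Nipbl alleles. In whole hearts, fewer cells that make Trib2 and less Trib2 RNA per cell cannot be told apart.

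Trib1 did not show this step. It ran from 15.3 to 21.9 CPM in wild-type hearts (median 17.5, mean 18.1 ± 2.28, n = 10) and from 14.1 to 22.02 CPM in Isl1 +/- hearts (median 18.6, mean 18.2 ± 2.45, n = 9). In Nipbl +/- hearts it ran from 13.5 to 23.7 CPM (median 19.0, mean 18.8 ± 3.40, n = 9), and in double heterozygous hearts from 14.1 to 23.1 CPM (median 20.1, mean 19.7 ± 3.03, n = 9). All 4 ranges overlap, and the means lie closer together than 1 SD of any group.

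**Figure D1:**
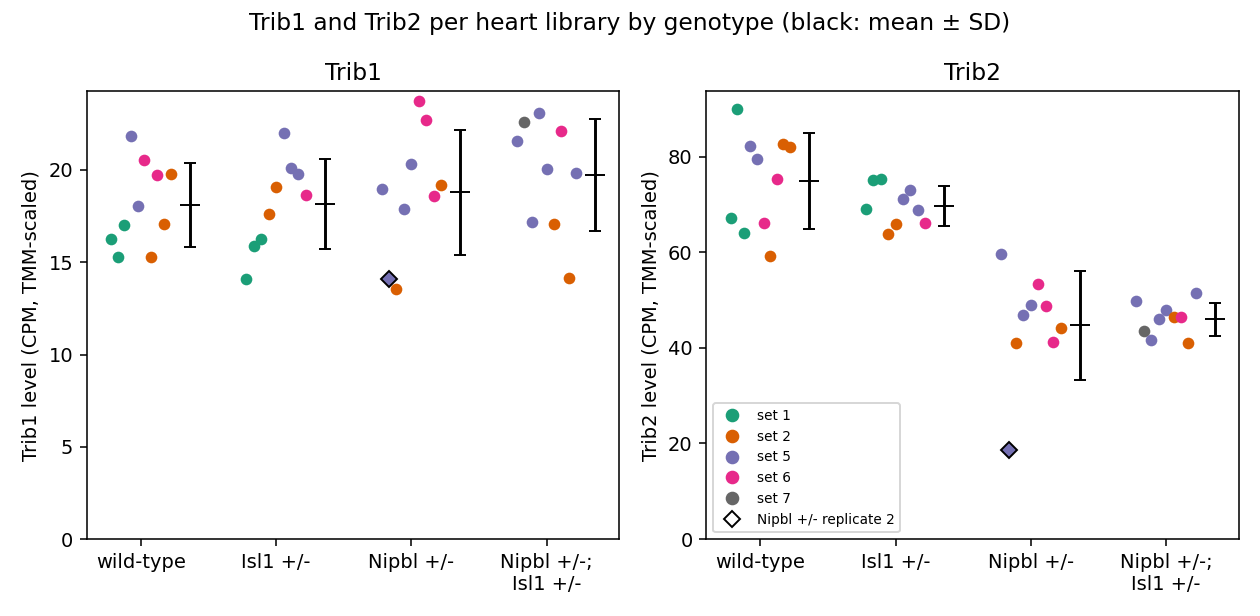
Level of Trib1 (left) and Trib2 (right) in CPM after TMM scaling, from 0, for each of the 37 heart libraries by genotype; colours give the set number, black marks the mean ± SD, and the diamond is the library labelled Nipbl +/- replicate 2. All double heterozygous points of Trib2 (41.1 to 51.5 CPM) lie below all wild-type and Isl1 +/- points, whereas the Trib1 ranges overlap.

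A fit over all genes with genotype and set number as terms gave the changes with their errors. Averaged over both Isl1 genotypes, the log2 change of Trib2 with Nipbl loss was −0.67 (SE 0.09, 95% interval −0.86 to −0.48), and without Nipbl +/- replicate 2 it was −0.62 (SE 0.06), or 35.1% lower. The same average for Trib1 was −0.05 (SE 0.07). In this comparison 4.02% of the genes tested passed the adjusted threshold of 0.05. Trib2 was among them and Trib1 was not, and since the pair was chosen with these differences known, nothing is read from that call.

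Each Nipbl genotype was also set against wild-type, and these comparisons share their wild-type libraries. Nipbl +/- minus wild-type was −0.75 (SE 0.12) for Trib2 with all libraries and −0.65 (SE 0.07) without replicate 2, in a comparison where 1.71% of genes passed. Double heterozygous minus wild-type was −0.70 (SE 0.13) for Trib2, where 2.60% of genes passed. Against Isl1 +/- hearts the double heterozygotes had a Trib2 change of −0.59 (SE 0.13), where 0.957% of genes passed. The calls of both comparisons with wild-type were lost with set 2 left out, at −0.72 and −0.68. The change against Isl1 +/- hearts ranged from −0.62 to −0.57 with a set or a library left out, and no longer passed with set 1, 2, 5 or 6 left out or without Isl1 +/- replicate 7. The Trib1 changes in these 3 comparisons were −0.08 (SE 0.09), −0.01 (SE 0.09) and −0.02 (SE 0.09). Calls of the pair in these comparisons restate its choice, and nothing is read from them.

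Loss of Isl1 alone left a smaller Trib2 difference, −0.11 (SE 0.12) against wild-type, in a comparison where 0% of genes passed. Averaged over both Nipbl genotypes, the change with Isl1 loss was −0.03 (SE 0.09) for Trib2 and 0.04 (SE 0.06) for Trib1, where 0.173% of genes passed. Without Nipbl +/- replicate 2 the Trib2 average was −0.11 (SE 0.05).

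The design also asks whether both losses together do more than their sum. Double heterozygous minus Nipbl +/- was 0.05 (SE 0.13) for Trib2 with all libraries and −0.09 (SE 0.08) without replicate 2, and 0.07 (SE 0.09) for Trib1. The interaction of both losses was 0.16 for Trib2 (SE 0.17, 95% interval −0.19 to 0.50) and 0.06 for Trib1 (SE 0.12). Without replicate 2 it was 0.05 for Trib2 (SE 0.10, 95% interval −0.16 to 0.25) and 0.01 for Trib1 (SE 0.11). In both of these comparisons 0% of genes passed. Both Trib2 intervals span 0.

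**Figure D2:**
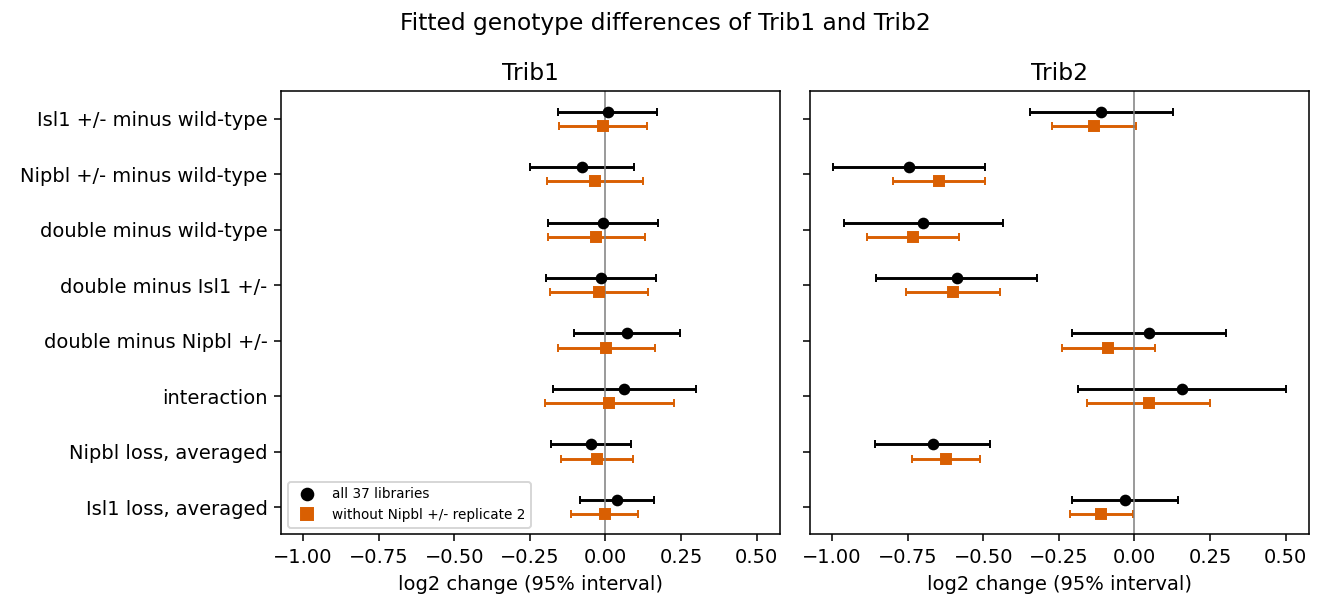
Fitted log2 change with its 95% interval for Trib1 (left) and Trib2 (right) in 8 comparisons, where double means Nipbl +/-; Isl1 +/-; black circles use all 37 libraries and orange squares leave out the library labelled Nipbl +/- replicate 2. Every comparison of 1 against 2 working Nipbl alleles lies below 0 for Trib2 (averaged −0.67), and every Trib1 interval spans 0.

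The Trib2 difference was present within each set that held both Nipbl states. Libraries labelled with 1 working Nipbl allele differed from those with 2 by a mean log2 CPM of −0.70 in set 2, −0.77 in set 5 and −0.55 in set 6, with no overlap of the values in any of these sets. Without Nipbl +/- replicate 2 the difference in set 5 was −0.62, also without overlap. How many of all genes separate in this way within sets was not counted, so nothing is read from the lack of overlap. For Trib1 the same differences were −0.16, −0.09 (−0.04 without replicate 2) and 0.15, and the values overlapped in each set. Within sets, Nipbl +/- minus wild-type was −0.79, −1.02 and −0.57 for Trib2 in sets 2, 5 and 6, and −0.65 in set 5 without replicate 2. Double heterozygous minus Isl1 +/- was −0.57, −0.59 and −0.51 in the same sets, from 2 against 2, 5 against 3 and 1 against 1 libraries.

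Trib1 differed between sets, which the choice of the pair did not use. Its mean was 15.8 ± 1.01 CPM in set 1 (SD, n = 6), 17.0 ± 2.25 in set 2 (n = 9), 19.6 ± 2.32 in set 5 (n = 14) and 20.9 ± 2.02 in set 6 (n = 7), and the library of set 7 was at 22.6 CPM. The sets differ in their genotypes, and among libraries with 2 working Nipbl alleles the means were 15.8, 17.8, 20.4 and 19.6 CPM in sets 1, 2, 5 and 6, so set 5 was above set 6 there. All 6 libraries of set 1, at 14.1 to 17.0 CPM, were below every library of set 6, at 18.6 to 23.7 CPM. How many of all genes separate these sets in this way was not counted, so nothing is read from it. In the edgeR fit the set terms together passed for Trib1, with an adjusted p of 0.00413 and of 8.97e-04 without Nipbl +/- replicate 2, and the term for set 6 against set 1 was 0.44 on the log2 scale. Such set differences were common, since 38.2% of genes passed this test. For Trib2 the adjusted p of the same edgeR test was 0.952, or 0.229 without that library.

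**Figure D3:**
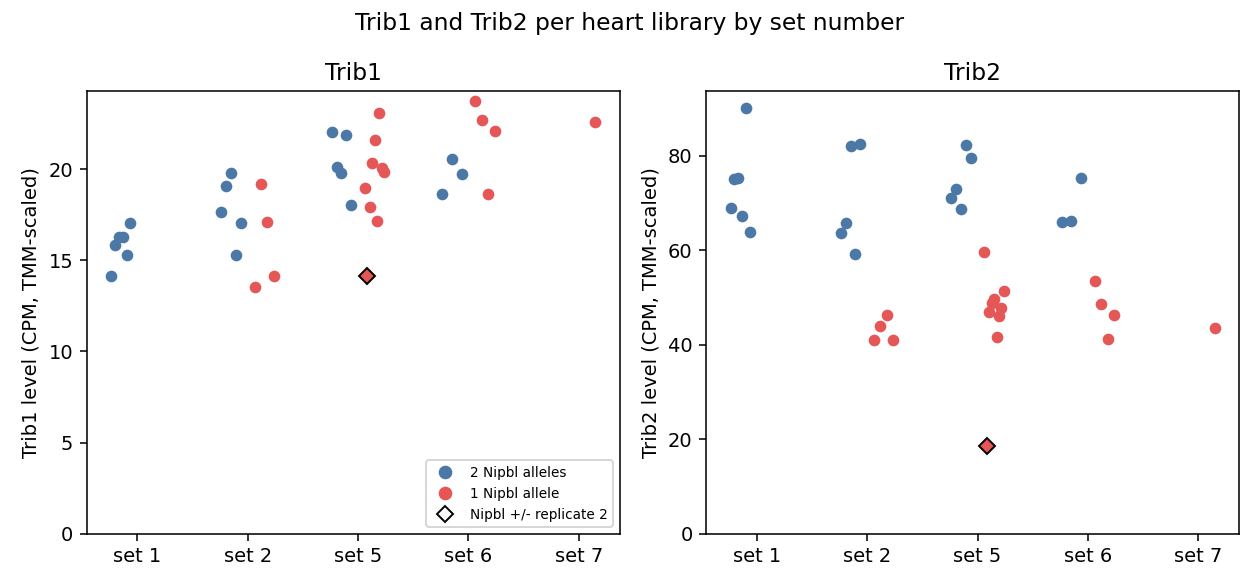
Level of Trib1 (left) and Trib2 (right) in CPM after TMM scaling, from 0, for each library by set number; blue points have 2 working Nipbl alleles, red points 1, and the diamond is the library labelled Nipbl +/- replicate 2. Over all genotypes Trib1 has set means from 15.8 CPM in set 1 to 20.9 CPM in set 6, whereas Trib2 separates by Nipbl genotype within sets 2, 5 and 6.

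After removal of genotype and set, Trib1 and Trib2 deviated together across the 37 libraries. Pearson's r of the residual log2 CPM was 0.571 (permutation adjusted p = 0.00095) and Spearman's rho was 0.439 (permutation adjusted p = 0.0182), adjusted over 5 relations. Without Nipbl +/- replicate 2, r was 0.401 (permutation adjusted p = 0.0379) and rho 0.391 (permutation adjusted p = 0.0492). Leaving out the 2 libraries farthest in Trib1 gave r = 0.369 (permutation, unadjusted p = 0.0289). Within sets r was −0.41 in set 1, 0.58 in set 2, 0.71 in set 5 (0.20 without replicate 2) and 0.84 in set 6, so set 1 went the other way. Both genes were scaled by the same library totals, and what part this has was not tested.

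Blood content varied widely between hearts, and Trib2 was set against it. The summed level of 11 erythroid markers ran from 497 to 105602 CPM over all libraries, with medians of 10508 in wild-type, 14434 in Isl1 +/-, 6619 in Nipbl +/- and 15111 CPM in double heterozygous hearts, a list that includes the embryonic globins Hba-x, Hbb-bh1 and Hbb-y. The adult globins Hbb-bt and Hbb-bs had 0 counted reads in every library, which is not read as absence of their RNA. None of the 7 erythroid genes tested passed the adjusted edgeR threshold in any comparison, but all 7 had an unadjusted p below 0.05 for averaged Isl1 loss, with a median log2 change of 1.00, as did 1831 of all 15046 genes. For double heterozygous against Nipbl +/- it was 6 of 7, with a median of 1.53, and 1355 of all genes. The Nipbl +/- group there includes replicate 2, at 497 CPM. Erythroid genes vary together with the blood in a heart, so they are not separate observations, and nothing is read from these counts. Trib2 was lower where erythroid markers were higher by rank (rho −0.468, permutation adjusted p = 0.0182), but not by Pearson's r (−0.148, permutation adjusted p = 0.371) with all libraries. Without Nipbl +/- replicate 2, which has the lowest erythroid sum and the lowest Trib2 of all 37, r was −0.549 (permutation adjusted p = 0.00275) and rho −0.564 (permutation adjusted p = 0.00245). Without the 2 libraries lowest in erythroid deviation as well, Isl1 +/- replicate 3 and wild-type replicate 10, r was −0.573. Within sets 1, 2 and 6 r was −0.66, −0.91 and −0.44, and in set 5 0.26, or −0.35 without replicate 2. How many of all genes relate to the erythroid markers as strongly was not counted, so nothing particular to Trib2 is read from this. With the erythroid level as a covariate, the Trib2 change was −0.68 for averaged Nipbl loss, −0.77 for Nipbl +/- and −0.67 for double heterozygous against wild-type, and −0.60 for double heterozygous against Isl1 +/- hearts. The part of blood content in the Trib2 difference was not tested.

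For Trib1 the relation with erythroid markers did not pass, at r = −0.194 with all libraries (permutation adjusted p = 0.313) and −0.332 without replicate 2 (permutation adjusted p = 0.0786). With immediate early genes, which respond to handling and stress, Trib2 had r = −0.646 (permutation adjusted p = 0.0374), but rho was −0.02 and r was 0.02 without replicate 2, so that relation rests on this library.

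**Figure D4:**
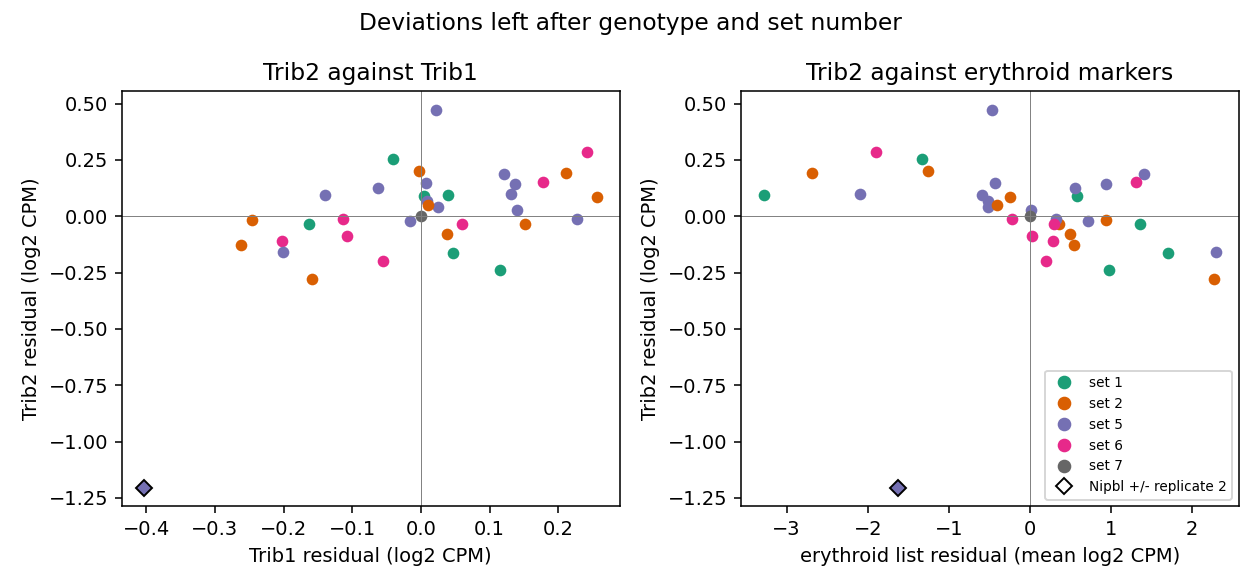
Deviations of Trib2 (log2 CPM) left after genotype and set number, against those of Trib1 (left) and of the mean of the erythroid markers (right), 1 point per library, coloured by set; the diamond is the library labelled Nipbl +/- replicate 2 and the set 7 library is at 0 because it is fitted exactly. Trib2 deviates with Trib1 (r = 0.571) and, leaving out the diamond, against the erythroid markers (r = −0.549).

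Markers of other cell types differed between genotypes as well. The 7 epicardial markers summed to 261 to 463 CPM in wild-type, 307 to 553 in Isl1 +/-, 407 to 614 in Nipbl +/- and 519 to 674 CPM in double heterozygous hearts, and none was at 0 in any library. In the averaged Nipbl comparison, where 4.02% of all genes passed, 3 of the 7 rose in the edgeR test, led by Wt1, a transcription factor of the epicardium, at 0.42 (SE 0.06, adjusted p = 8.28e-06). The list's median log2 change was 0.28 with Nipbl loss and 0.30 with Isl1 loss, where 1 of the 7 and 0.173% of all genes passed. In double heterozygous against wild-type hearts 5 of the 7 and 2.60% of all genes passed. Tubb3, a neuronal tubulin, rose by 0.49 (SE 0.13, edgeR adjusted p = 0.0234) in the averaged Nipbl comparison, as 1 of 3 neuron and neural crest genes tested. The others did not pass, at 0.26 for Sox10 (SE 0.17) and −0.09 for Elavl3 (SE 0.14), and Elavl3 was at −0.57 (SE 0.19, edgeR adjusted p = 0.142) in double heterozygous against wild-type hearts. None of the 8 cardiomyocyte, 6 endothelial or 5 cushion mesenchyme markers passed in the averaged Nipbl comparison with all libraries. The endothelial list went both ways there, with a median log2 change of −0.02. Npr3, an endocardial receptor, was at −0.25 (SE 0.10, edgeR adjusted p = 0.217), Nfatc1 at −0.08 and Kdr at −0.01. Cdh5 was at 0.11 and Pecam1 at 0.13. Without replicate 2 Npr3 passed in that comparison, at −0.20 (SE 0.05, edgeR adjusted p = 0.0096), with Cdh5 at 0.12 and Pecam1 at 0.11. Calls over all genes in that comparison went from 605 to 1044 when this library was left out. The 5 liver markers summed to 0.916 to 356 CPM in Nipbl +/- hearts and to at most 18.2 CPM in any other genotype, but the medians were 1.51 CPM in Nipbl +/-, 0.901 in wild-type, 1.07 in Isl1 +/- and 1.23 CPM in double heterozygous hearts. Of 3 liver markers tested none passed, with a median log2 change of 2.04 for averaged Nipbl loss and 2 at an unadjusted p below 0.05, as were 2243 of all 15046 genes. Csf1r, a macrophage receptor, was at 0.55 (SE 0.27, edgeR adjusted p = 0.435) in double heterozygous against wild-type hearts, and passed without replicate 2, at 0.64 (SE 0.18, edgeR adjusted p = 0.0288). Calls over all genes in double heterozygous against wild-type hearts went from 391 to 839 without that library. The part of these cell types in the Trib2 difference was not tested.

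Around the pair, 55 further genes of the Tribbles pathway were followed, and 54 could be tested. In the averaged Nipbl comparison 1 rose and 1 fell, a share near the 4.02% of all genes that passed, and the median log2 change of 0.01 is also the median of all genes. These counts are therefore no result about the pathway as a whole. In double heterozygous against Isl1 +/- hearts, where 0.957% of genes passed, 1 fell, and in the other 6 comparisons none passed in edgeR, with 1, 10, 3, 2, 2 and 4 of the 54 at an unadjusted p below 0.05 for Isl1 +/-, Nipbl +/- and double against wild-type, double against Nipbl +/-, the interaction and the averaged Isl1 loss. Over all 15046 genes the same counts were 886, 2267, 1739, 1355, 411 and 1831. DESeq2 passed 2 of them for Nipbl +/- against wild-type, and without its share over all genes nothing is read from that count.

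Among the ubiquitin ligases and their partners, none of 10 passed for Nipbl loss. Cop1, the ligase that Tribbles proteins recruit, was at 59.2 ± 4.61 CPM in wild-type (n = 10) and 62.7 ± 3.95 CPM in double heterozygous hearts (n = 9), with an averaged Nipbl change of 0.02 (SE 0.04, edgeR adjusted p = 0.905). In the family itself, Stk40, a more distant Tribbles relative, was at 0.06 (SE 0.04, edgeR adjusted p = 0.545).

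Of 12 tested substrates and other factors removed through COP1, Ets2 fell and Cebpa rose in the averaged Nipbl comparison, where 4.02% of all genes passed. Ets2, a transcription factor of the ETS family, averaged 57.3 ± 7.48 CPM in wild-type (n = 10), 61.6 ± 4.92 in Isl1 +/-, 54.1 ± 5.06 in Nipbl +/- and 54.4 ± 3.94 CPM in double heterozygous hearts (n = 9 each), so the ranges overlap. Its averaged Nipbl change was −0.22 (SE 0.04, edgeR adjusted p = 0.00268), past the threshold in 9 of 12 other settings, and against Isl1 +/- hearts the double heterozygotes had −0.27 (SE 0.06, edgeR adjusted p = 0.0242). The latter call was lost without Isl1 +/- replicate 5, 6 or 7 or double heterozygous replicate 6 or 8, at −0.26 to −0.27.

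Cebpa, the C/EBP factor that TRIB1 and TRIB2 are known to remove, was low, at 23 to 135 reads per library. It averaged 1.13 ± 0.257 CPM in wild-type (n = 10), 1.11 ± 0.177 in Isl1 +/-, 1.80 ± 0.854 in Nipbl +/- and 1.56 ± 0.432 CPM in double heterozygous hearts (n = 9 each). Its averaged Nipbl change was 0.54 (SE 0.16, edgeR adjusted p = 0.0454), and the call was kept in only 12 of 37 fits that left out a library, with 0.41 without Nipbl +/- replicate 9. Cebpb, a related factor, did not pass, at −0.08 (SE 0.17, edgeR adjusted p = 0.897). Liver cells also express Cebpa, and the part of the liver markers in its rise was not tested. These RNA levels say nothing of the proteins, which Tribbles scaffolds act on.

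None of 6 MAP kinase genes, 10 ERK feedback targets or 8 AKT and FOXO genes passed in the averaged Nipbl comparison. Spry4, a feedback inhibitor of receptor signalling, was at −0.27 (SE 0.08, edgeR adjusted p = 0.0534), and at −0.24 (edgeR adjusted p = 0.0298) without Nipbl +/- replicate 2. Calls over all genes in this comparison went from 605 to 1044 without that library.

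**Figure D5:**
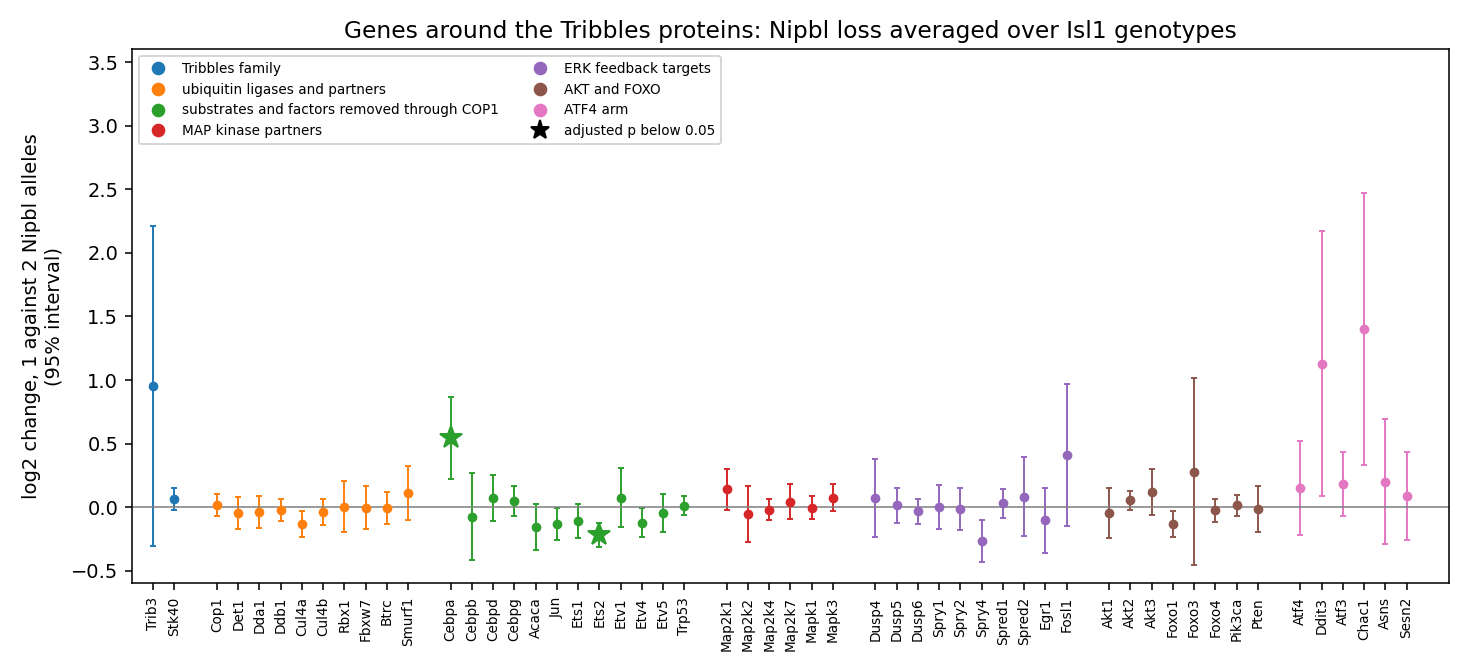
Log2 change with 95% interval in 1 against 2 working Nipbl alleles, averaged over Isl1 genotypes, for the 54 tested genes of the Tribbles pathway lists, coloured by list; stars passed an adjusted p of 0.05 in edgeR. Only Cebpa (0.54) and Ets2 (−0.22) carry stars, and Trib3 and the ATF4 genes Ddit3 and Chac1 have the widest intervals.

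Trib3 and the ATF4 arm that induces it were dominated by single libraries. Trib3 ran from 1.82 to 15.7 CPM in wild-type, from 2.14 to 11.0 in Isl1 +/- and from 2.74 to 34.6 CPM in double heterozygous hearts, and from 2.70 to 7.41 CPM in 8 of the Nipbl +/- libraries. The library labelled Nipbl +/- replicate 2 was at 131 CPM. Nipbl +/- minus wild-type was therefore 1.52 for Trib3 (SE 0.78, edgeR adjusted p = 0.359) with that library and −0.11 (SE 0.45, edgeR adjusted p = 0.958) without it.

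The same library held 702 CPM of Ddit3, which encodes CHOP, against 10.4 to 25.7 CPM in all others, and 674 CPM of Atf4 against 129 to 280 CPM. Asns, an ATF4 target of amino acid metabolism, was at 212 CPM there and at most 108 CPM elsewhere. Immediate early genes summed to 423 CPM there and to 176 to 236 CPM in the other libraries, and 3 of those 8 genes are also in the pathway lists. Its Trib1, at 14.1 CPM, was among the lowest 3 of the 37, and its Trib2, at 18.6 CPM, was below the next lowest library at 41.1 CPM. Whether this state of the library accounts for its Trib2 level was not tested, and the averaged Nipbl change of Trib2 was −0.62 without it.

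The neighbourhoods of both genes within 500 kb were read from RefSeq. Of 16 annotated neighbours of Trib1, Sqle, Washc5 and Nsmce2 could be tested. In the averaged Nipbl comparison 4.02% of all genes passed. Sqle, which encodes an enzyme of cholesterol synthesis, was lower there (−0.17, SE 0.04, edgeR adjusted p = 0.00947), past the threshold in 7 of 12 other settings. Washc5 (−0.06, SE 0.06, edgeR adjusted p = 0.681) and Nsmce2 (−0.02, SE 0.04, edgeR adjusted p = 0.893) did not pass. Nothing is read from the Sqle call about the neighbourhood. Of 10 neighbours of Trib2, the single one with a row was Mir6387, in an intron of Trib2, with at most 1 read. The long noncoding RNA Gm5432 starts head to head with Trib2 and overlaps its first bases in RefSeq, and since a strand setting is not stated for the counting, reads of both over that overlap cannot be told apart.

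Genes with a pattern most like each member were ranked by Pearson's r of set-adjusted log2 CPM across libraries, as a description, since all points share library depth and genotype. Over 37 libraries and 12079 genes, those close to Trib2 included Lgi2 (r = 0.928), Slitrk5 (0.913), Irx4 (0.895) and Col13a1 (0.885). The opposite patterns were Mvp (−0.883), H2bu2 (−0.877) and Stxbp2 (−0.874). Over the 36 libraries without Nipbl +/- replicate 2 the closest were Slitrk5 (0.956), Tmtc1 (0.904), Sobp (0.899), Lgi2 (0.899) and Rtn4rl1 (0.882), 2 of which are in both lists, and the most opposite were Chit1 (−0.875), Rarres1 (−0.832) and Sbk3 (−0.829).

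For Trib1 the closest were Nuak1 (r = 0.792), Timp2 (0.781), Mecom (0.762), Ckap4 (0.755) and Marveld1 (0.752), and the most opposite Gm7072 (−0.728), Ormdl2 (−0.726) and Rgs10 (−0.723). Without Nipbl +/- replicate 2 they were Nuak1 (0.719), Marveld1 (0.717), Mmp2 (0.695), Timp2 (0.695) and Fam129b (0.679), with 3 in both lists, and Mindy3 (−0.679), Clk1 (−0.660) and 2500004C02Rik (−0.647) at the other end. None of the genes named for Trib1 is among those named for Trib2. With genotype also removed, r with Trib2 was 0.878 for Lgi2 and 0.857 for Slitrk5 over all libraries, and 0.759 and 0.813 without replicate 2. For the other genes named in the fit without replicate 2 it was 0.738 for Rtn4rl1, 0.718 for Tmtc1, 0.651 for Sobp, −0.622 for Chit1, −0.473 for Sbk3 and −0.219 for Rarres1.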

How the data were processed

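Bulk RNA-seq of 37 hearts was analysed. RNA and libraries were made with the Monarch Total RNA and NEBNext Ultra II RNA kits, per the labels' protocols. The authors deposited raw read counts per gene symbol. STAR, featureCounts, GRCm38 and mm10 are named in the submitters' processing notes, without versions or roles, and the strand setting is not given in the sources used here. All value columns belong to the 37 libraries.

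Low counts were filtered by filterByExpr on the genotypes, with a minimum count of 10 and a minimum total of 15, leaving 15046 genes. The edgeR 4.0.16 quasi-likelihood test (limma 3.58.1, R 4.3.3) was run after TMM scaling on a model of genotype plus set, and one fit held the 37 libraries, which share an estimate of the spread. Two-sided p-values were adjusted by the Benjamini-Hochberg method across the genes tested, separately in each of 8 comparisons, with 0.05 as threshold. CPM are TMM-scaled, and log2 CPM used a prior count of 2. Correlations of residuals used 100000 permutations (scipy 1.17.1, Python 3.11.15), which took the residuals as free values and so gave p-values that are too small. The model was also run on simulated counts, drawn independently for each gene, without set differences and without an odd library. That run therefore says nothing about how the model handles these features of the data.

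Members and gene lists were chosen with earlier results of these data known. Genes named were the members, Nipbl and Isl1, pathway genes past the threshold, Trib3, Cop1, Cebpa and Cebpb, and the 5 most and 3 least alike patterns with mean log2 CPM of at least 1, of which 1 is not reported here; the other genes named, neighbours included, were chosen after their values were seen. No 2 libraries of a group agreed within sampling noise (smallest chi-square per degree of freedom 7.19 over 153 pairs). Alternatives were no set term, replicate number in place of set, DESeq2 1.42.0, its size factors in edgeR, other filters, each set left out, 2 covariates and each library left out. Macrophage, liver and foregut marker lists had 0 genes past the threshold in any comparison with all libraries.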

Additional observations from a re-analysis of the deposited data

Results flagged for a closer look

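Of 32 groups checked over 8 genes, 6 had a library far from the others by Dixon's 95% criterion, which chance alone meets in about 1 group in 20. The library labelled Nipbl +/- replicate 2 had 3 of them. It was singled out before this check, so its 3 flags are described only and not set against chance. Its Trib2 was 18.6 CPM, with the nearest of its group at 41.1 CPM. Its Trib3 was 131.4 CPM, with the nearest at 7.41 CPM, and its Cebpb was 31.1 CPM, with the nearest at 13.3 CPM. In the double heterozygous group, replicate 3 had 34.6 CPM of Trib3 against 11.3 CPM in the nearest library. Wild-type replicate 7 had 15.7 CPM of Trib3 against 5.58 CPM, and 70.0 CPM of Cop1 against 61.7 CPM. No value of Trib1 stood apart in this way.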

How the results depend on the processing

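Under 12 other settings and 37 fits that left out a library, the 784 values of Trib1 and Trib2 moved by less than the SD between libraries of a genotype (0.22 and 0.27 log2 CPM), which is wider than the SE of a fitted change. Changes of Trib1 near 0 did take either sign. The averaged Nipbl change of Trib2 ran from −0.72 to −0.62. Since the pair was chosen on this difference, its calls are no sign of stability; those lost were Nipbl +/- and double heterozygous against wild-type with set 2 left out (−0.72 and −0.68), and double heterozygous against Isl1 +/- with set 1, 2, 5 or 6 left out (−0.57, −0.59, −0.59 and −0.62) or without Isl1 +/- replicate 7 (−0.58). Pathway genes past the threshold for Nipbl +/- against wild-type were 0, but 2 with no set term, 1 with the erythroid and 2 with the immediate early covariate and 2 with DESeq2; with a library left out they were 0 to 1. For double heterozygous against Isl1 +/- the count was 1, but 0 with no set term and with set 1, 2 or 5 left out, and 0 to 2 with a library left out. For averaged Nipbl loss it was 2, but 1 with no filter or with set 1, 5 or 6 left out, 0 with set 2 left out, 4 with the immediate early covariate, and 1 to 3 with a library left out. Counts over all genes moved more: from 258 to between 31 (set 2 left out) and 467 (no set term) for Nipbl +/- against wild-type, from 391 to 67 (set 5 left out) and 650 for double heterozygous against wild-type, from 144 to 12 and 266 against Isl1 +/-, from 605 to 152 and 1045 for averaged Nipbl loss, from 26 to 0 and 113 for averaged Isl1 loss, and from 0 to 11 (DESeq2) for Isl1 +/-. With a library left out these were 167 to 410, 244 to 839, 73 to 361, 436 to 1044, 4 to 73 and 0 to 2. Replicate numbers did not pair the libraries: 17 of 54 same-numbered pairs had r above 0.1 (from −0.449 to 0.554), and 3 of 37 libraries correlated best with their own number. With the replicate block in place of set number, the averaged Nipbl change of Trib1 was 0.09, and the pathway counts were 0 for double heterozygous against Isl1 +/- and 1 for averaged Nipbl loss. The immediate early relations turned from −0.21 to 0.30 for Trib1 and from −0.65 to 0.0221 for Trib2 without Nipbl +/- replicate 2, and to 0.29 and 0.0751 without the 2 farthest libraries. The erythroid relation of Trib2 was −0.55 without that replicate, and the relation of Trib1 with Trib2 was 0.40 without it, 0.37 without the 2 farthest libraries and −0.41, 0.58, 0.71 and 0.84 within sets 1, 2, 5 and 6. The causes were not tested. Reads lack molecular identifiers, so depth speaks to counting error alone.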
